A study of Rattus norvegicus with 6 samples.

Results

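Genes that make, sense and move cholesterol were compared between hypertensive and normotensive rats. They comprise 31 genes, chosen by gene symbol and read by 50 of the 31042 probe sets on the array that are not controls. Cholesterol in the brain is made locally, because lipoproteins of the blood do not cross into it. Myelin holds most of the brain's cholesterol, oligodendrocytes and astrocytes make it, and apolipoprotein E carries it between cells. Synthesis runs from acetyl-CoA through mevalonate, farnesyl diphosphate, squalene and lanosterol. The enzymes are switched on together by SREBP transcription factors, which are held in the endoplasmic reticulum by INSIG proteins when sterols are plentiful and are escorted out by SCAP when sterols run low. Excess sterol is removed by ABC transporters, stored as esters, or hydroxylated.

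The genes of this pathway were examined in the rostral ventrolateral medulla, a brainstem region whose neurons drive sympathetic outflow. Spontaneously hypertensive rats (SHR), bred for blood pressure that climbs with age, were compared with rats of the WKY strain, which the labels spell Wistar-Kyoko and which is taken here as Wistar-Kyoto, the usual normotensive comparison. Each strain had 3 animals with 1 Affymetrix Rat 230 2.0 array each, so n counts animals. All rats weighed 250 to 350 g, were kept on equal periods of light and dark, and received no treatment. The labels used here give neither age nor sex. The tissue was bulk RNA, in which fewer cells of a type and less RNA per cell cannot be told apart.

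Members were the probe sets whose gene symbol in the deposited table is exactly one of 34 listed symbols. Npc1 and the older symbols Sc4mol and Sc5dl matched no probe set. A probe set was kept for testing if MAS5, the software that made the signals, called it Present on at least 3 of the 6 arrays. This kept 44 member probe sets of 29 genes, among 20790 on the array. Hsd17b7 and Cyp46a1 had no kept probe set. All values are log2 MAS5 signals, and all differences are SHR minus WKY on that scale.

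The arrays were alike: 64.8% to 67.0% of probe sets were Present and array medians lay between 7.43 and 7.47. Th, Dbh, Pnmt and Slc17a6, markers of catecholaminergic and glutamatergic neurons found in this region, were Present on all 6 arrays. Of these 4, 3 lay below 0, with a median of -0.16 that was further from 0 than that of the enzymes below. Dbh and Pnmt, enzymes of noradrenaline and adrenaline synthesis, differed by -0.54 ± 0.25 and -0.29 ± 0.20 (SE; limma, adjusted p = 0.549 and 0.719), with overlap. The summed linear signal of the 4 was 4605 to 6583 in SHR and 5376 to 7628 in WKY, and its part in the sterol results was not tested. Of the forebrain genes Emx1, Emx2 and Neurod6, the first pair was Present on none and Neurod6 on 6, with a difference of -0.26 ± 0.32. The kept Hox probe sets, which mark hindbrain position along the body axis, had differences of -1.52 (Hoxb5), -0.99 (Hoxa5) and -0.68 (Hoxd3). None was called (limma, unadjusted p = 0.00212 to 0.0102, adjusted p = 0.123 to 0.279). Their summed linear signals were 344 to 884 in SHR and 950 to 1342 in WKY, which do not overlap. All SHR lay below all WKY for Hoxb5 and Hoxd3, against 7.76% of all kept probe sets. Hoxa5 overlapped, with 8.48 in SHR replicate 2 and 8.24 in WKY replicate 3. Whether the level at which tissue was taken has a part in the sterol results below was not tested.

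No sterol gene passed the test over the whole array, and the small differences that came nearest all lay in enzymes of synthesis. The member probe sets of smallest p were 1 each of squalene epoxidase (Sqle), lanosterol synthase (Lss), lanosterol demethylase (Cyp51), methylsterol monooxygenase (Msmo1) and phosphomevalonate kinase (Pmvk). These had differences of -0.17 to -0.38, which are 1.12-fold to 1.30-fold lower signals in SHR. The brighter Cyp51 probe set differed by only -0.10, with overlap. Genes of sterol sensing had a median near 0, and those of transport, storage and removal lay on both sides of it. Limma called none of the 44 kept member probe sets at an adjusted p under 0.05, where 0.924% of all 20790 kept probe sets were called (192), 0.399% lower and 0.524% higher in SHR. The whole-array count was 81, 81 and 78 when WKY replicate 1, 2 and 3 was left out, and it was 63 with no variance trend. At an unadjusted p under 0.05, 5 member probe sets lay lower in SHR, or 11.4%, against 4.7% of all kept probe sets, and 0 lay higher, against 4.81%. Without a variance trend 3 members lay lower and 2 higher at that p. Without WKY replicate 2 the counts were 4 lower, where 3.5% of all kept probe sets lay lower, and 2 higher.

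The probe sets of synthesis enzymes lay mostly below 0. Among the 22 kept probe sets of synthesis enzymes, 18 (81.8%) differed below 0, with a median of -0.10, while 49.7% of all kept probe sets lay below 0 and their median was 0.00. For 7 of the 22 all SHR animals lay below all WKY animals, or 31.8% against 7.76% of all kept probe sets, and for 0 all SHR lay above, against 7.26%. Among the 22 others, 10 lay below 0, the median was 0.05 beside a median standard error of 0.16, and 1 had all SHR above all WKY. Whether the groups of genes differ from each other was not tested. Probe sets of 1 gene share a transcript, and genes of the pathway vary together, so these counts are not over independent units. With each array left out in turn the synthesis median stayed between -0.14 and -0.09. The median of all 44 members was -0.05, and -0.01 without SHR replicate 1 and -0.02 without WKY replicate 2.

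**Figure D1:**
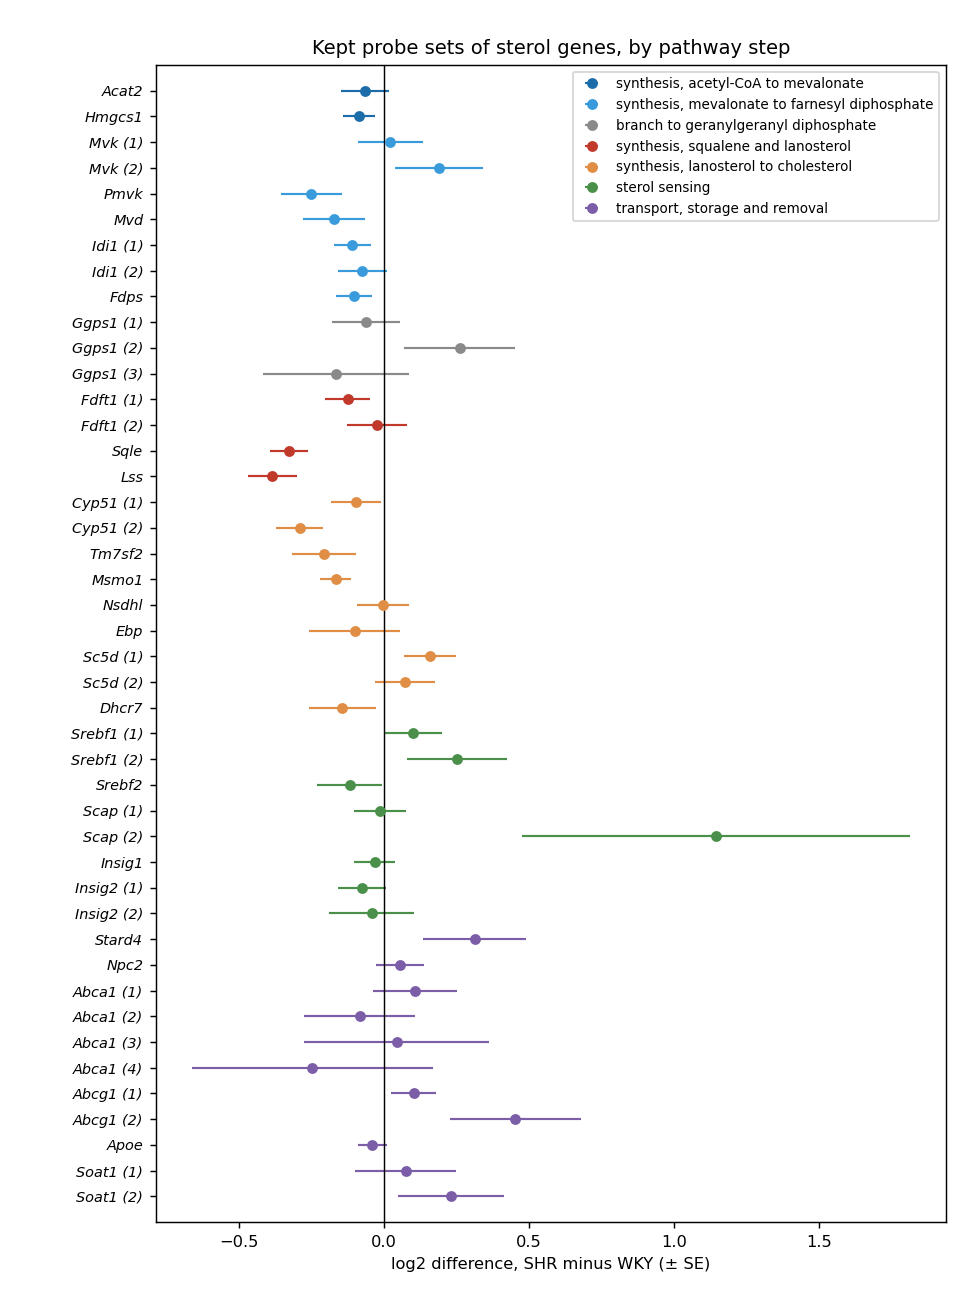
Log2 difference in signal, SHR minus WKY, with its standard error (horizontal bars), for the 44 kept probe sets from the start of synthesis at the top to removal of sterol at the bottom; numbers after a symbol mark probe sets of 1 gene, brightest first, and colours mark the step. Most points of the synthesis steps lie left of 0, with Lss at -0.38 and Sqle at -0.33, and the widest bar belongs to a dim Scap probe set at 1.15.

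The first steps make mevalonate. Hmgcs1, the cytosolic synthase that condenses acetoacetyl-CoA and acetyl-CoA, had signals of 12.92, 13.04 and 13.05 in SHR, against 13.11, 13.02 and 13.12 in WKY. The strains overlap and the difference was -0.08 ± 0.05 (SE; limma, adjusted p = 0.692). Acat2, a thiolase that supplies acetoacetyl-CoA, differed by -0.07 ± 0.08, also with overlap.

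Mevalonate is then phosphorylated, decarboxylated and joined into farnesyl diphosphate. Pmvk, the kinase that adds the second of these phosphates, had signals of 10.10, 9.88 and 10.21 in SHR, against 10.45, 10.31 and 10.18 in WKY. The highest SHR animal lay just above the lowest WKY animal. The difference was -0.25 ± 0.11 (SE; limma, unadjusted p = 0.0414, adjusted p = 0.495). Idi1, the isomerase that activates the isoprene unit, had signals of 11.31, 11.38 and 11.39 in SHR, against 11.42, 11.44 and 11.55 in WKY. All SHR animals lay below all WKY animals, by a margin small beside the spread within WKY, and the difference was -0.11 ± 0.06 (SE; limma, adjusted p = 0.662). A dimmer Idi1 probe set differed by -0.07 and overlapped. Mvd, the decarboxylase, also showed no overlap, with a difference of -0.17 ± 0.11. Fdps, which makes farnesyl diphosphate, differed by -0.10 ± 0.06. Mvk, mevalonate kinase, lay the other way, with its kept probe sets at 0.02 ± 0.11 and 0.19 ± 0.15. None of these was called. Ggps1, which leads off to geranylgeranyl diphosphate for protein prenylation, had 3 kept probe sets between -0.16 and 0.26.

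The steps around squalene and lanosterol, the first that serve only sterols, held the member probe sets of smallest p, those of Sqle and Lss. All SHR lay below all WKY for 2 of the 4 kept probe sets of these steps, against 7.76% of all kept probe sets. Fdft1, squalene synthase, had signals of 11.05, 11.24 and 11.27 in SHR, against 11.27, 11.40 and 11.26 in WKY. It overlapped and differed by -0.12 ± 0.08, and its dimmer probe set differed by -0.02. Sqle, which oxidises squalene and is a control point of the pathway, had signals of 10.94, 10.91 and 10.96 in SHR, against 11.34, 11.21 and 11.25 in WKY. The gap between the strains was wider than the range within either of them. The signal averaged 10.94 ± 0.03 in SHR animals and 11.26 ± 0.06 in WKY animals (SD, n = 3 per strain), a difference of -0.33 ± 0.07 (SE) or a 1.26-fold lower signal in SHR. Limma gave an unadjusted p of 0.00049 and an adjusted p of 0.0523, just outside the threshold. Over 1 probe set per gene the adjusted p was 0.0427, where 0.902% of genes were called, and it lay between 0.0459 and 0.0499 with pseudocounts of 16 and 64, median centring, or probe sets Present on all arrays only. It lay between 0.0675 and 0.256 with any 1 array left out, and was 0.259 without a variance trend. The probe set aligned to chromosome 7 at 100196364 to 100211970 (Rnor5.0, plus strand).

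Lss, which folds squalene epoxide into lanosterol, had signals of 9.74, 9.87 and 9.79 in SHR, against 10.28, 10.12 and 10.16 in WKY. Again no SHR animal reached a WKY animal. The signal averaged 9.80 ± 0.07 in SHR animals and 10.19 ± 0.09 in WKY animals (SD, n = 3 per strain), a difference of -0.38 ± 0.09 (SE; limma, unadjusted p = 0.00112, adjusted p = 0.0903). It was called under none of the 16 alternatives, with adjusted p between 0.0801 and 0.362. This probe set aligned at 2 places, the first listed being chromosome 20 at 15335475 to 15336129 (Rnor5.0, minus strand). The other Lss probe set was Present on 0 SHR arrays and 1 WKY array, so it gives no fold. Its signals were 6.65, 6.08 and 7.39 in SHR, against 7.80, 7.77 and 7.61 in WKY, and did not overlap either.

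Lanosterol becomes cholesterol through demethylation, reduction and isomerisation. Cyp51, which removes the first methyl group, had a probe set with signals of 10.16, 10.14 and 10.32 in SHR, against 10.46, 10.52 and 10.52 in WKY. These do not overlap, and the difference was -0.29 ± 0.08 (SE; limma, unadjusted p = 0.00446, adjusted p = 0.186). The brighter Cyp51 probe set, of a type that can match several transcripts, had signals of 11.94, 11.75 and 11.58 in SHR, against 11.88, 11.87 and 11.81 in WKY. It overlapped, and SHR replicate 1 was the highest of all animals there, so the probe sets of this gene separate the strains unequally. Its difference was -0.10 ± 0.09 (SE; adjusted p = 0.794).

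Msmo1, the oxidase of the next demethylations, had signals of 11.91, 11.95 and 11.98 in SHR, against 12.09, 12.15 and 12.09 in WKY. The strains did not overlap, though the difference was only -0.17 ± 0.05 (SE; limma, unadjusted p = 0.012, adjusted p = 0.303). Tm7sf2, a sterol reductase, did not overlap either and differed by -0.21 ± 0.11. Dhcr7, the reductase that ends one route to cholesterol, had signals of 9.91, 10.17 and 10.09 in SHR, against 10.16, 10.43 and 10.02 in WKY, with overlap and a difference of -0.14 ± 0.12. The isomerase Ebp differed by -0.10 ± 0.16 and the dehydrogenase Nsdhl by 0.00 ± 0.09. Sc5d, a sterol desaturase, had differences of 0.16 ± 0.09 and 0.07 ± 0.10 on its 2 probe sets. Hsd17b7, a ketoreductase of the demethylation complex, was Present on no array. None of these probe sets was called (limma, adjusted p at least 0.303).

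**Figure D2:**
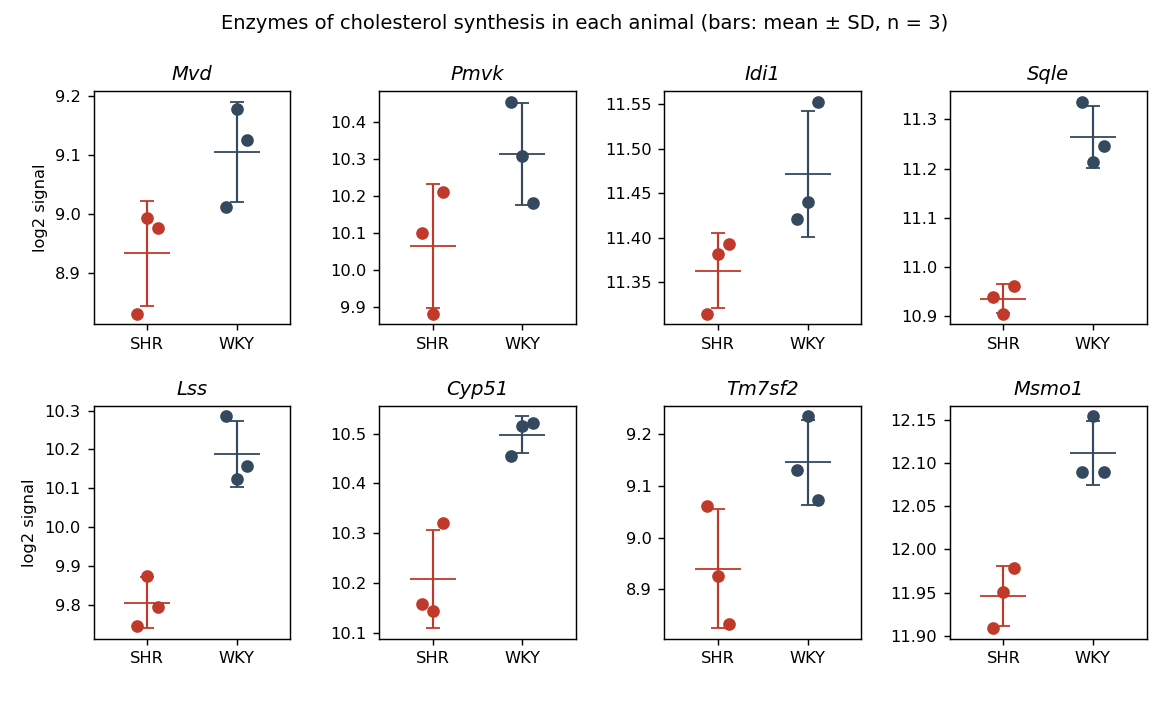
Log2 signal in each animal for 8 enzymes of synthesis, SHR left and WKY right in each panel, with the mean and SD (n = 3); the vertical axes do not start at 0 and differ between panels, and the probe set of smallest p is shown for Idi1, Lss and Cyp51. The panels were picked after the values were seen. In 7 panels no SHR animal reaches a WKY animal, and these are all such probe sets among the 22 of synthesis enzymes. That is 31.8%, against 7.76% of all kept probe sets. In the Pmvk panel the highest SHR animal (10.21) lies above the lowest WKY animal (10.18). Mvk and Sc5d, which differed above 0, are not shown.

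Promoter sequences were read for the enzymes with the clearest separation that the RefSeq table (GRCr8) holds, with Insig1, a sterol-responsive gene whose signal differed by only -0.03, beside them. Each runs 5′ to 3′ on the gene's strand, from 250 bases before the start of the gene to 50 bases after it. Capitals mark CCAAT or its reverse complement ATTGG, the box bound by NF-Y, a partner of SREBP, and CACGTG, an E-box that SREBP can also bind. The windows are chr20:12118181-12118480 (minus strand) for Lss, chr4:30991443-30991742 (plus) for Cyp51, chr16:29746863-29747162 (plus) for Msmo1 and chr4:8057720-8058019 (minus) for Insig1.
Lss: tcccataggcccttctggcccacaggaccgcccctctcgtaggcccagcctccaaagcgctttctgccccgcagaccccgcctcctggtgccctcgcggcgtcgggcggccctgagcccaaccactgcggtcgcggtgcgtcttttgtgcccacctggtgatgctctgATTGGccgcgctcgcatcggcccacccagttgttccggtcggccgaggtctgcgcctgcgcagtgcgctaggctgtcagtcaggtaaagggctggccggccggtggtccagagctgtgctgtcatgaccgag
Cyp51: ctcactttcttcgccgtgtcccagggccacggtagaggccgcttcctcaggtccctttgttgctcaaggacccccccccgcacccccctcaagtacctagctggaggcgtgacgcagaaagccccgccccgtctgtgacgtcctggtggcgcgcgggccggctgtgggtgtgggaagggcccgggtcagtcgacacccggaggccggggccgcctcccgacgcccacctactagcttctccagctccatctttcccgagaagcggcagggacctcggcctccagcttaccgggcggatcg
Msmo1: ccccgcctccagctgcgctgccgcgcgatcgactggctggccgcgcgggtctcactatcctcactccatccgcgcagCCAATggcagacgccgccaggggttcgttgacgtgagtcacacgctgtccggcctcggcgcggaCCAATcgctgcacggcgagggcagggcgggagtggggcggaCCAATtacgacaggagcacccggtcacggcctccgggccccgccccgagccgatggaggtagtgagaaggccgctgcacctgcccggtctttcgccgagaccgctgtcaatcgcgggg
Insig1: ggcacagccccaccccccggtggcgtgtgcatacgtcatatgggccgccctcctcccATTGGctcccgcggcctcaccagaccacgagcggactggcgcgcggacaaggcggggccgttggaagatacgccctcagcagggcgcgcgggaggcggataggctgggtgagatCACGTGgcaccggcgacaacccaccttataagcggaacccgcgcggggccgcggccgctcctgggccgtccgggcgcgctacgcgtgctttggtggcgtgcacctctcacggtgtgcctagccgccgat

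The Msmo1 window holds 3 CCAAT boxes, 173, 109 and 68 bases before the start. The Lss window holds 1, on the opposite strand 82 bases before the start, and the Cyp51 window holds none. The Insig1 window holds an E-box 79 bases and a CCAAT box 193 bases before the start. Both strands were searched, and no match overlaps another in the windows shown. The letters TCACNCCAC, a form of the sterol regulatory element, were searched as well. Of 27 member genes with a promoter entry, 21 (77.8%) held CCAAT, against 37.5% of all 33469 promoters of the same length, and 12 of the 15 synthesis genes did. A member gene counted if any of its entries held the letters, while the shares of all promoters count single entries. The 27 genes had 30 entries. CACGTG was found in Sc5d, Scap, Insig1 and Abca1, or 14.8% of the 27, against 6.42% of all promoters. TCACNCCAC was found in 0 of the 27, against 1.12% of all promoters, which says only that these letters are not in these windows. A match is a description of letters and was not tied to any difference between the strains.

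None of the 8 kept probe sets of genes that sense sterols separated the strains. Of all kept probe sets, 7.76% had all SHR below all WKY and 7.26% had all SHR above. Srebf2, the SREBP gene that drives cholesterol synthesis, had signals of 10.36, 10.58 and 10.79 in SHR, against 10.65, 10.83 and 10.60 in WKY. The strains overlap, with a difference of -0.12 ± 0.11 (SE; limma, adjusted p = 0.81). Insig1, whose transcript is itself raised by SREBP, had signals of 11.61, 11.59 and 11.70 in SHR, against 11.55, 11.75 and 11.71 in WKY. SHR animals lay within the WKY range, and the difference was -0.03 ± 0.07 (SE; adjusted p = 0.934). Insig2, which retains SREBP as Insig1 does, differed by -0.07 and -0.04 on its 2 probe sets. Srebf1, which favours fatty acid genes, differed by 0.10 ± 0.10 and 0.25 ± 0.17. Scap differed by -0.01 ± 0.09 on its bright probe set. A dim one, Present on 2 SHR arrays and 1 WKY array, had signals of 6.16, 7.12 and 6.93 in SHR, against 3.70, 6.59 and 6.48 in WKY. WKY replicate 1 lay far below the other animals there, and the difference was 1.15 ± 0.67. Over the 8 kept probe sets of this group 5 lay below 0 with a median of -0.02. With 1 array left out that median ranged from -0.08 (without WKY replicate 1) through -0.05 (without SHR replicate 3) to 0.03 (without WKY replicate 2) and 0.06 (without SHR replicate 1), so its sign rests on single arrays.

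Genes of sterol transport, storage and removal had 8 of 11 kept probe sets above 0 and a median of 0.08, which was 0.01 without WKY replicate 2, 0.13 without SHR replicate 3 and 0.14 without WKY replicate 3. Apoe, the main apolipoprotein made in the brain, had signals of 13.36, 13.34 and 13.46 in SHR, against 13.46, 13.39 and 13.43 in WKY. The animals overlap within a narrow range, and the difference was -0.04 ± 0.05 (SE; limma, adjusted p = 0.869). Abca1, which loads cholesterol onto apolipoproteins, had signals of 9.10, 9.15 and 9.34 in SHR, against 9.11, 8.81 and 9.36 in WKY on its brightest probe set. It differed by 0.11 ± 0.14, and the dimmer sets by -0.25 to 0.04, all with overlap. Abcg1, which works beside Abca1, differed by 0.10 ± 0.08 and 0.45 ± 0.23. Stard4, a carrier of free cholesterol between membranes, was the only kept member with all SHR above all WKY. That is 2.27% of the 44 kept member probe sets, against 7.26% of all kept probe sets. The Stard4 signals were 7.62, 7.66 and 7.32 in SHR, against 7.23, 7.16 and 7.27 in WKY, a difference of 0.31 ± 0.18 (SE; adjusted p = 0.64). Npc2, which passes cholesterol out of the lysosome, differed by 0.06 ± 0.08, and Soat1, which esterifies it, by 0.08 ± 0.17 and 0.23 ± 0.18. Cyp46a1, the neuronal hydroxylase through which cholesterol leaves the brain, was Present on 0 SHR arrays and 1 WKY array and was not tested. Its signals were 8.21, 8.77 and 8.90 in SHR, against 9.33, 8.75 and 9.04 in WKY. These lay above the array medians of 7.43 to 7.47, and no alignment was listed for this probe set.

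Of the 29 genes tested, 12 had several kept probe sets, and in 9 of the 12 these had 1 sign. Ggps1, Scap and Abca1 had both signs. The median standard error was 0.09 over synthesis probe sets, 0.16 over the other members and 0.15 over all kept probe sets, so the members outside synthesis were measured less precisely.

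The rest of sterol and lipid metabolism was read from 6 lists of 65 symbols, with 75 kept probe sets of 57 genes. Limma called none of the 75. At an unadjusted p under 0.05, 6 lay lower in SHR (8.0%, against 4.7% of all kept probe sets). At that p 4 of the 75 lay higher, against 4.81% of all kept probe sets. Of the 75, 40 lay below 0 (53.3%, against 49.7%). In the list of fatty acid synthesis genes driven by SREBP, 8 of 13 lay below 0. Of the 13, 2 had all SHR below all WKY (15.4%, against 7.76% of all kept probe sets). In 1 all SHR lay above all WKY (7.69%, against 7.26%). Acsl3, an acyl-CoA synthetase, had signals of 11.40, 11.40 and 11.56 in SHR, against 11.81, 11.73 and 11.70 in WKY. Scd, a desaturase, had signals of 9.49, 9.60 and 9.24 in SHR, against 8.93, 8.44 and 9.14 in WKY. So the strains did not overlap for either gene, in opposite directions, with differences of -0.29 ± 0.07 and 0.61 ± 0.17 (SE; limma, adjusted p = 0.106 and 0.206).

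Among lipoprotein receptors and carriers 9 of 14 lay below 0, with a median of -0.13 and a range of -0.42 to 0.41. Of the 14, 3 had all SHR below all WKY (21.4%, against 7.76% of all kept probe sets). In 1 all SHR lay above all WKY (7.14%, against 7.26%). The receptor genes Vldlr and Lrp1 differed by -0.29 ± 0.08 and -0.18 ± 0.06 (SE; limma, adjusted p = 0.202 and 0.355), and neither overlapped between strains. Among genes of SREBP processing and sterol-regulated degradation 6 of 10 lay below 0. The smallest p in that list, in either direction, belonged to Erlin1 (-0.21 ± 0.15) and Mbtps1 (0.09 ± 0.10). Liver X receptor and oxysterol genes had 3 of 7 below 0. Their smallest p belonged to Ch25h (0.74 ± 0.33) and Cyp27a1 (-0.28 ± 0.18), hydroxylases that make oxysterols. Intracellular sterol transfer genes had 10 of 20 below 0, and the smallest p belonged to Osbpl6 (0.37 ± 0.16) and Osbpl1a (-0.21 ± 0.10). The non-sterol isoprenoid branch had 4 of 11 below 0. Its smallest p belonged to the farnesyltransferase subunit gene Fntb (-0.46 ± 0.15) and Pdss2 (0.41 ± 0.23), a gene of the ubiquinone side chain. None of these was called.

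Markers of oligodendrocytes, which make cholesterol for myelin, had differences of a size like those of the enzymes. Among 19 kept probe sets of 12 oligodendrocyte and myelin genes, 16 lay below 0, with a median of -0.09 (synthesis enzymes -0.10). Their summed linear signal was 137084 to 151294 in SHR and 155725 to 165282 in WKY, with no overlap. That of the synthesis enzymes was 42885 to 44401 in SHR and 45945 to 47604 in WKY, also with no overlap. Limma called 1 of the 19 myelin probe sets, a Mobp probe set, at -0.99 ± 0.07 (SE; adjusted p = 0.000111). The other 2 Mobp probe sets, the brightest among them, differed by -0.17 ± 0.05 and -0.12 ± 0.09 and were not called. At an unadjusted p under 0.05, 6 of the 19 lay lower in SHR (31.6%, against 4.7% of all kept probe sets) and 0 higher. Array by array, the median deviation of the synthesis enzymes from the mean of the 6 arrays was -0.12, -0.03 and -0.04 in SHR, against 0.07, 0.10 and 0.03 in WKY. That of the myelin genes was -0.17, -0.01 and 0.02 in SHR, against 0.10, 0.09 and 0.01 in WKY, and so overlapped between the strains. SHR replicate 1 was the lowest array in both lists. Without it the myelin median was -0.05, with 4 probe sets lower in SHR at an unadjusted p under 0.05, and the synthesis median was -0.09, with 7 (5.13% of all kept probe sets). Without SHR replicate 2 the myelin median was -0.14 with 6 such probe sets and the synthesis median -0.11 with 4 (4.92% of all). Without SHR replicate 3 both medians were -0.14, with 8 myelin and 5 enzyme probe sets (4.94% of all). With a WKY array left out the myelin median lay between -0.12 and -0.09. The part of myelin or oligodendrocyte RNA in the enzyme differences was not tested.

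Astrocyte markers had 5 of 14 below 0 and a median of 0.10, with summed signals of 46773 to 56273 in SHR and 51703 to 55611 in WKY. S100b and a dim Aqp4 probe set came nearest to a call (-0.14 ± 0.05 and 0.53 ± 0.23; SE), while the other 2 Aqp4 sets, the brightest among them, differed by 0.11 ± 0.08 and 0.18 ± 0.15. Neuron markers had 3 of 9 below 0 and a median of 0.02. Their smallest p belonged to 1 of 2 Stmn2 probe sets (0.27 ± 0.06; limma, adjusted p = 0.0656) and to Snap25 (-0.09 ± 0.06). The brighter Stmn2 set lay the other way (-0.04 ± 0.05; adjusted p = 0.864). Microglia markers had 3 of 9 below 0 and a median of 0.06, with the smallest p for Aif1 (-0.17 ± 0.11) and P2ry12 (0.21 ± 0.18). Endothelial markers had 3 of 4 below 0 and a median of -0.10, with the smallest p for Tek (-0.17 ± 0.12) and Cldn5 (-0.13 ± 0.11). Summed signals of the neuron, microglia and endothelial lists overlapped between the strains.

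**Figure D3:**
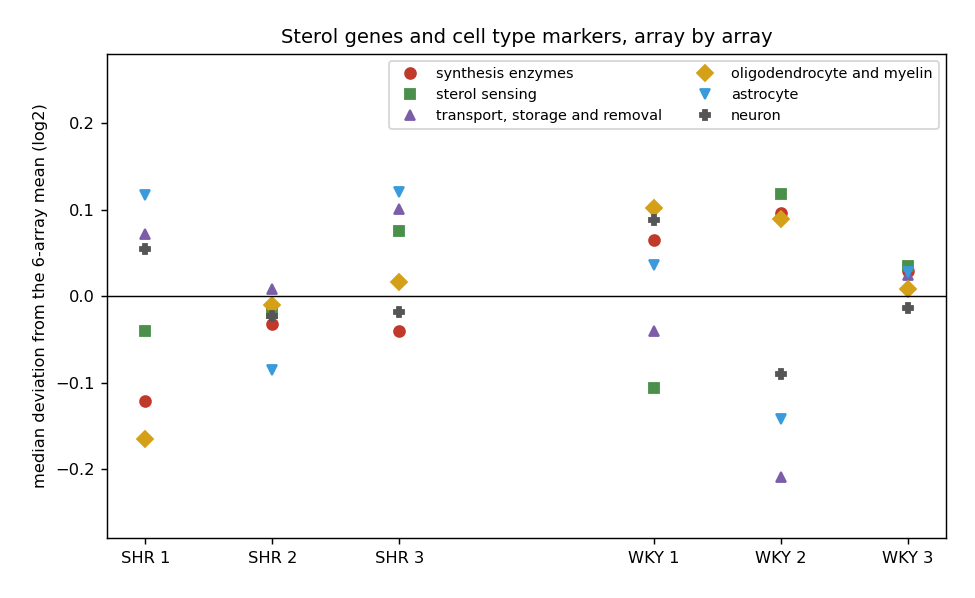
Median deviation of each gene list from the mean of the 6 arrays, on the log2 scale, for each SHR array (left) and WKY array (right). The synthesis enzymes lie below 0 on the 3 SHR arrays and above 0 on the 3 WKY arrays, and the sensing and transport genes show no such parting. SHR 1 is the lowest array for both the enzymes and the myelin genes. The myelin genes overlap between the strains, with SHR 3 (0.016) above WKY 3 (0.008).

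**Figure D4:**
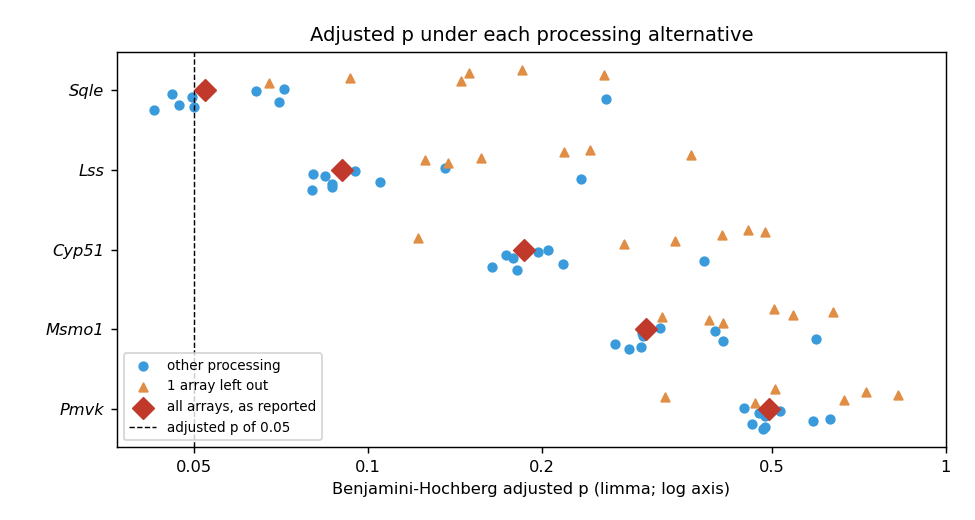
Adjusted p on a log axis for the 5 member probe sets with an unadjusted p under 0.05, with all arrays (diamonds), with 1 array left out (triangles) and under other processing (circles); the dashed line is the threshold of 0.05. Sqle lies to the left of the line under 5 of 16 alternatives, between 0.0427 and 0.0499, and the other 4 probe sets lie to its right under each alternative that measured them.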

How the data were processed

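RNA was amplified from its 3′ ends and labelled with biotin, per the labels' protocols. The authors deposited log2 signals with Present, Marginal or Absent calls, and separately the intensity behind each log2 value on a linear scale. MAS5, a tool that scales arrays to a common level, is named in the submitters' processing notes without a version. Its low signals are imprecise, and a sequence variant of a strain under a probe can dim a probe set at unchanged RNA. Deposited log2 values were used as they stand, without 57 array controls. The test was limma 3.58.1 under R 4.3.3, moderated with a variance trend, 2-sided, with only strain in the model and Benjamini-Hochberg adjustment over 20790 probe sets. The limma fit was tested on simulated data.

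Members and lists were chosen with earlier results of these data known. Every member was named, and values per animal were given for probe sets with an unadjusted p under 0.05 and for the brightest of 10 genes named in the rule. Values per animal of other members (Stard4, dim sets of Lss, Scap and Soat1, and Mvd and Tm7sf2 as drawn) were picked after they were seen. In the other lists, called probe sets or otherwise the 2 of smallest p were named, which need not be the brightest of their gene. The Hox gene Hoxa5, the Present calls of markers and the other probe sets of Mobp, Aqp4 and Stmn2 were picked after their values were seen. Alternatives comprised median centring, quantile normalization, pseudocounts of 16 and 64, other filters, no variance trend, 1 probe set per gene, the linear table, a replicate block and each array left out. A forebrain marker is not reported here. No genome sequence was used, so exons and untranslated regions were not assigned. Precision is limited by the 3 animals per strain.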

Additional observations from a re-analysis of the deposited data

How the results depend on the processing

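The enzyme median stayed between -0.14 and -0.09 under all 16 alternatives. Counts and the median over all members moved more. Member probe sets called lower in SHR numbered 0 as reported and 1 (Sqle) under median centring, both pseudocounts, probe sets Present on all arrays and 1 probe set per gene. Members called higher numbered 0 under each alternative. Members with an unadjusted p under 0.05 lay lower in SHR in 5 cases as reported and 3 without a variance trend. They lay higher in 0 as reported, 2 without a variance trend and 1 with a replicate block. The whole-array shares at that p were not counted under these alternatives. With each array left out, the lower ones numbered 4 to 7, where 3.36% to 5.13% of all kept probe sets lay lower. The higher ones numbered 0 to 2 with each array left out, and their whole-array share was not counted. The median of all members ranged from -0.070 to -0.0070 with each array left out. Probe sets called on the whole array numbered 192 as reported, 94 over 1 probe set per gene (fewer features), 63 without a variance trend and 78 to 205 with each array left out. The cause of these shifts was not tested. Deviations of animals with the same replicate number in the titles correlated at 0.08, -0.01 and 0.07. Those of animals with other numbers correlated at -0.12 to 0.07. With 3 animals per strain, these values cannot show whether the numbers pair the animals. The replicate block gave 196 calls on the whole array, and an adjusted p of 0.0715 for Sqle. Of 14 member probe sets followed, 11 kept their sign under each alternative that measured them. Apoe, Abca1 and Insig1 changed sign once each, with no call. Too few Present calls kept 6 of the 50 member probe sets out of the test.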

Other observations

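Of the 6 member probe sets that were not kept, 2 aligned on the strand opposite to the other probe sets of their gene. The dim Mvk set aligned to the plus strand of chromosome 12 at 49695635 to 49699588, and the dim Srebf2 set to the minus strand of chromosome 7 at 123365007 to 123365405 (Rnor5.0). Both were Present on no array. The dim Soat1 set, Present on no array, had signals of 4.19, 3.18 and 3.77 in SHR and 4.34, 4.61 and 5.86 in WKY, while the kept Soat1 sets differed by 0.08 and 0.23.

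The dim Lss probe set aligned to chromosome 20 at 15001955 to 15027560 (Rnor5.0), and the first of the 2 alignments listed for the kept Lss set lay at 15335475 to 15336129 on that chromosome.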
